A study of Mus musculus with 4 samples.

Results

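The insulin-like growth factor (IGF) genes described here are the ligand gene *Igf1*, the receptor genes *Igf1r* and *Igf2r*, the binding protein genes *Igfbp2*, *Igfbp3*, *Igfbp4*, *Igfbp5*, *Igfbp6* and *Igfbp7*, and *Pappa*, which encodes a protease of binding proteins. They were chosen by symbol, as 10 of the 24391 gene symbols in the table of read counts. All 10 had enough reads to be tested, among 13668 tested genes in total. RNA-seq was performed on primary mouse embryonic fibroblasts (MEFs), which were grown from E13.5 embryos and arrested in quiescence, in 2 WT and 2 *Phf2* KO libraries. *Phf2* encodes a reader of histone H3 that is methylated at lysine 4, and the comparison asked which genes change their expression when *Phf2* is deleted.

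By the labels, the cells of all 4 libraries had the genotype Phf2 flox/flox, ERCre/+, so the WT libraries also carried the floxed alleles and the recombinase. The recombinase, CreERT2, enters the nucleus once 4-hydroxytamoxifen (4-OHT) binds it and was expressed from the Rosa26 locus, which is active in most cell types. Tamoxifen is a label of the *Phf2* KO libraries only, and the sample descriptions read noTamox for WT and Tamox for *Phf2* KO. The protocol text (0.5 µM 4-OHT for 7 days in medium with 2% charcoal-treated serum) is nevertheless the same for each sample. The vehicle and medium of the WT cells are not given by name. A library with 4-OHT and intact *Phf2*, or with deleted *Phf2* and no 4-OHT, was not among the 4, so the loss of *Phf2*, the activity of Cre and exposure to 4-OHT cannot be told apart. The labels number the replicates 1 and 2 and do not say from which embryos they came or whether a WT and a *Phf2* KO library of one number share an embryo, so the p-values measure the spread between these libraries.

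IGF1 and IGF2 are secreted growth factors that signal through the IGF1 receptor, a receptor tyrosine kinase. The IGF2 receptor binds IGF2 without such a kinase and carries it to lysosomes. IGF binding proteins hold the ligands outside the cell and thereby limit or prolong their access to the receptor, and proteases such as PAPP-A cut some of them and release the ligand. Fibroblasts are a known source of binding proteins.

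Where a pair of values is given for a group, replicate 1 comes first. The libraries held between 21094743 and 26094268 counts. A floor of 3 counts stood for 0.116 to 0.145 CPM (counts relative to the library total, scaled here by TMM factors), and each IGF gene was counted at least 1584 times in each library, for which counting error alone is at most 2.51%. *Phf2* itself was at 135 and 142 CPM in the WT libraries and at 70.2 and 89.8 CPM in the *Phf2* KO libraries, so the *Phf2* KO mean was 57.9% of the WT mean, and *Phf2* reads remained in both libraries labelled *Phf2* KO. These counts cover the whole gene, and the sources used here do not say which part is deleted. Reads from outside that part and reads from undeleted alleles cannot be told apart in them. In the study's separate ChIP-seq experiments almost all Phf2 peaks were absent in *Phf2* KO cells. The 12 fibroblast markers summed to 85345 and 88409 CPM in the WT libraries and to 76960 and 74333 CPM in the *Phf2* KO libraries, and the defining collagen gene *Col1a1* was at 21075 CPM or more in each library. The female-specific RNA *Xist* had 10042 and 8336 counts in the replicates 1 of WT and *Phf2* KO and 3 and 12 in the replicates 2, while the Y-linked *Ddx3y* had 6 and 10 counts in the former and 1271 and 1295 in the latter. The replicates 1 were thus female and the replicates 2 male in both groups, and therefore came from different embryos. Between replicates 1 and 2 the libraries of a group differed more than libraries of the same number differed between groups, with a chi-square per degree of freedom of 41.0 within WT and 28.0 within *Phf2* KO, against 15.2 between the replicates 1 and 11.8 between the replicates 2. Each ratio of *Phf2* KO to WT is therefore also given within each replicate number.

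None of the 10 IGF genes passed edgeR's quasi-likelihood test between *Phf2* KO and WT, in which each Benjamini-Hochberg adjusted p was at least 0.999. At the threshold of 0.1 the test called 0% of all tested genes as higher and 0.00732% as lower in *Phf2* KO, the latter being 1 gene that is not *Phf2*. *Phf2* itself, the deleted gene, did not pass edgeR's quasi-likelihood test either (log2 fold change -0.79, adjusted p = 0.999). Failing this test therefore does not show that a gene was unchanged. At an unadjusted p under 0.05, 1 IGF gene (*Pappa*) was lower and 0 were higher, beside 365 and 211 of all tested genes. DESeq2 and limma-voom also called 0 of the 10. By sign, 3 had a higher and 7 a lower fitted value in *Phf2* KO, with a median log2 fold change of -0.11, where the median over all tested genes was 0.01. The *Phf2* KO and WT libraries did not overlap for 1 gene that was higher (*Igf1r*) and 1 that was lower (*Pappa*), while 15.5% of all tested genes were higher and 18% lower without overlap. Most fibroblast markers had the same direction as most binding protein genes and *Pappa*. Of the 12 markers, 9 had a lower fitted value in *Phf2* KO, the median log2 fold change was -0.17, and both *Phf2* KO sums were below both WT sums, which describes signs and levels and is no test. *Postn* and *Lum*, which encode matrix proteins, had the lowest values, -0.76 and -0.75 on the log2 scale. The 3 markers with a higher fitted value were *Pdgfrb* (0.10), *Thy1* (0.03) and *Vim* (0.02). The matrix genes *Col1a1*, *Col1a2*, *Fn1* and *Col3a1* had the highest levels of the list, so the sums describe mainly these genes. The part of the fibroblast markers in the values of the IGF genes was not tested.

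**Figure D1:**
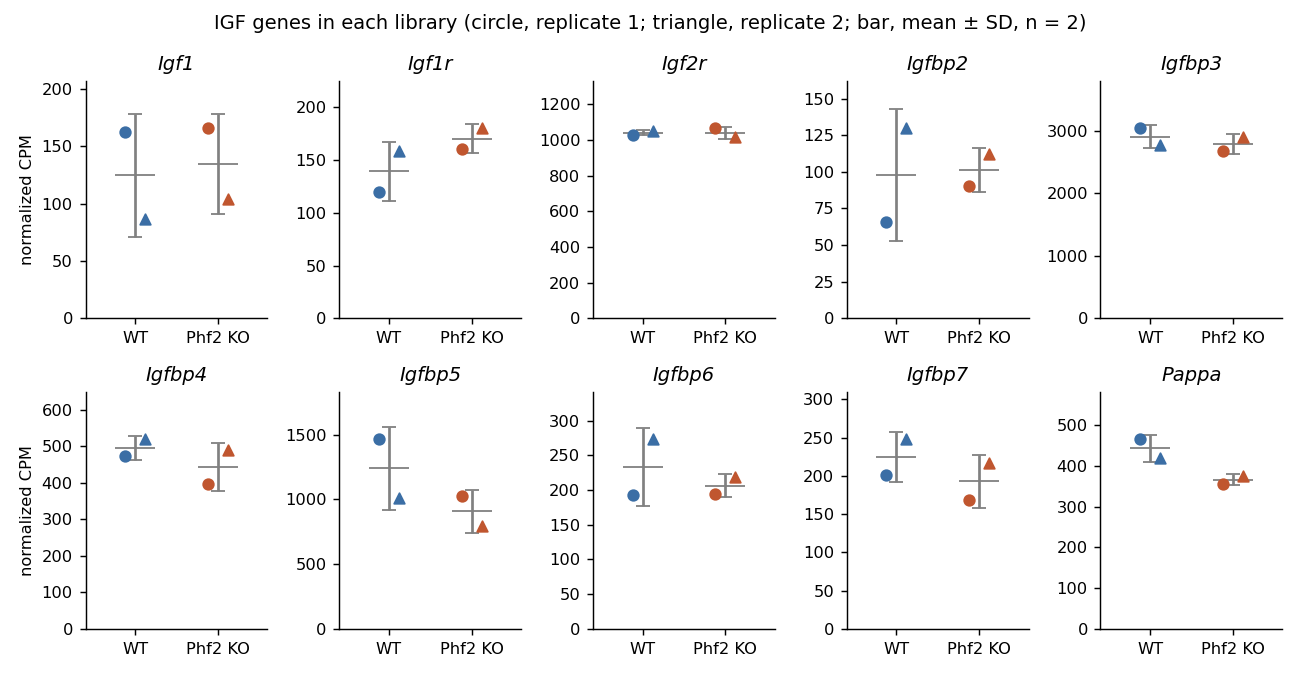
Normalized CPM of each of the 10 IGF genes in the 4 libraries, with WT in blue and *Phf2* KO in orange, circles for replicate 1, triangles for replicate 2, and the mean with its SD (n = 2). The groups separate for *Igf1r* and *Pappa* and overlap for the other 8 genes.

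*Igf1*, the ligand gene, lies on mm9 chromosome 10 from 87321010 to 87399792 on the plus strand. It was at 163 and 86.7 CPM in the WT libraries and at 166 and 104 CPM in the *Phf2* KO libraries. Both replicates 1 were above both replicates 2, so the libraries divided by replicate number and the groups overlapped. The group means were 125 ± 53.8 CPM in WT and 135 ± 43.5 CPM in *Phf2* KO (SD, n = 2 each), a log2 fold change of 0.11 with a 95% interval of -0.89 to 1.11. With the replicate block, a fit that also holds the replicate number as a term, the log2 fold change was 0.14 with a 95% interval of -0.02 to 0.30, and *Igf1* did not pass that test either (edgeR's quasi-likelihood test, adjusted p = 0.352). Within a replicate number the log2 ratio of *Phf2* KO to WT was 0.02 for the replicates 1 and 0.26 for the replicates 2, whereas between replicates 1 and 2 the log2 difference was 0.91 in WT and 0.67 in *Phf2* KO.

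The markers of macrophages moved with the replicate number in the same direction as *Igf1*, a gene that macrophages are also known to transcribe. In both groups, replicate 1 exceeded replicate 2 for all 24 tested markers of the 26 listed. Their summed level was 5155 and 1101 CPM in the WT libraries and 5648 and 1697 CPM in the *Phf2* KO libraries, so that replicate 1 had 4.68 times the level of replicate 2 in WT and 3.33 times in *Phf2* KO. The defining marker *Csf1r*, the receptor for macrophage colony-stimulating factor, was at 256, 55.2, 291 and 72.1 CPM in the same order. Within each replicate number the *Phf2* KO sum was the higher one. Of the 24 tested markers, 16 had a higher and 8 a lower fitted value in *Phf2* KO. In the replicates 1, *Lyz2* was at 1325 CPM in WT and 1726 CPM in *Phf2* KO. Other markers were lower there in *Phf2* KO, among them *Cd68* (570 CPM in WT, 529 in *Phf2* KO) and *Mpeg1* (430 and 367 CPM). The higher sum of the replicates 1 therefore does not describe each marker. The part of these cells in the *Igf1* level was not tested. Sex and embryo also differed between the replicate numbers and cannot be told apart from the macrophage difference. In bulk RNA fewer cells of a type and less RNA per cell cannot be told apart either. Lists of endothelial, muscle, neural, epithelial, hepatoblast, adipocyte and chondrocyte markers summed to at most 72.1 CPM in any library. Some of these low sums also differed between replicate numbers in both groups. The chondrocyte sum was 1.78 and 21.7 CPM in WT and 4.25 and 27.6 CPM in *Phf2* KO. The muscle sum was 54.6 and 26.4 CPM in WT and 33.2 and 15.6 CPM in *Phf2* KO.

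**Figure D2:**
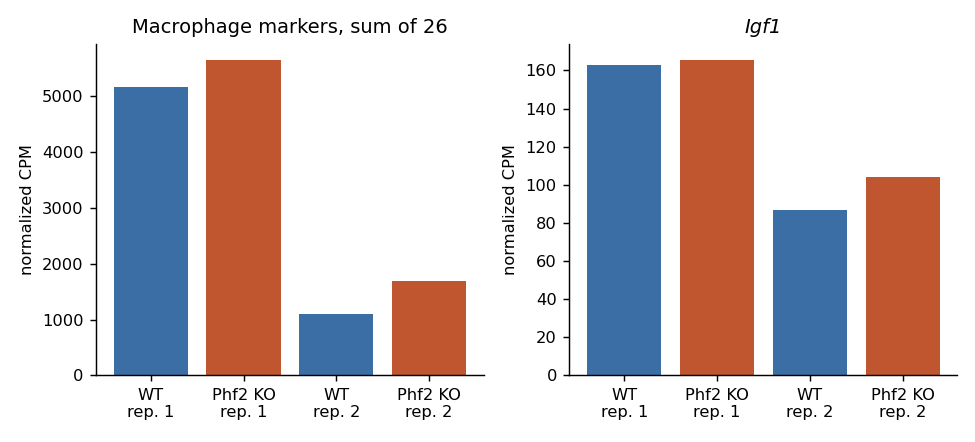
Summed normalized CPM of the 26 macrophage markers (left) and normalized CPM of *Igf1* (right) in each library, 1 bar per library, with WT in blue and *Phf2* KO in orange. In both panels the 2 libraries of replicate 1 stand above the 2 of replicate 2, with *Igf1* between 163 and 166 CPM in the former and between 86.7 and 104 CPM in the latter.

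*Igf1r*, which encodes the signalling receptor, lies on mm9 chromosome 7 from 75097713 to 75371484 on the plus strand. It was at 120 and 159 CPM in the WT libraries and at 160.5 and 180.0 CPM in the *Phf2* KO libraries. Both *Phf2* KO libraries were above both WT libraries, although the lower *Phf2* KO library exceeded the higher WT library by less than the difference between the WT replicates. The mean was 139 ± 27.7 CPM in WT and 170 ± 13.8 CPM in *Phf2* KO (SD, n = 2 each), a difference that did not pass the test, with a log2 fold change of 0.29 (95% interval -0.15 to 0.72). Within replicate numbers the log2 ratio was 0.42 and 0.18. Without WT replicate 1 the log2 fold change was 0.11, and without WT replicate 2 it was 0.49.

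*Igf2r*, the receptor that clears IGF2, is an imprinted gene on mm9 chromosome 17 (12875272 to 12962530, minus strand) and had the narrowest interval of the 10. Its level was 1030 and 1049 CPM in the WT libraries and 1064 and 1014 CPM in the *Phf2* KO libraries. The groups overlapped, the *Phf2* KO mean was 100.0% of the WT mean, and the 95% interval of the log2 fold change ran from -0.25 to 0.25. Among the genes compared per length, *Igf2r* had the smallest ratio of the highest to the lowest library, at 1.05. *Airn*, an antisense RNA that overlaps *Igf2r*, was counted between 113 and 153 times in the 4 libraries. The study's methods name a reverse-stranded setting for the alignment and do not name one for the counting step. If that step ignored strand, reads of such overlapping genes cannot be told apart.

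*Igfbp5* showed the largest fitted difference of the 10 and encodes a binding protein that also attaches to extracellular matrix. It was at 1466 and 1014 CPM in the WT libraries and at 1027 and 793 CPM in the *Phf2* KO libraries. The groups overlapped, because *Phf2* KO replicate 1 was above WT replicate 2, but within each replicate number the *Phf2* KO library was the lower one, by a log2 ratio of -0.51 for the replicates 1 and -0.35 for the replicates 2. The *Phf2* KO mean was 73.4% of the WT mean (910 ± 166 against 1240 ± 320 CPM, SD, n = 2 each), and the log2 fold change was -0.45 (95% interval -1.06 to 0.17). This value was -0.14 without WT replicate 1, -0.28 without *Phf2* KO replicate 2, -0.65 without *Phf2* KO replicate 1 and -0.70 without WT replicate 2.

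*Igfbp2* is the neighbour of *Igfbp5* and encodes a binding protein that is abundant in the embryo. The genes face each other on mm9 chromosome 1, with *Igfbp2* from 72871077 to 72899048 on the plus strand, *Igfbp5* from 72904506 to 72921458 on the minus strand, and 5.46 kb between their ends. *Igfbp2* was at 65.7 and 130 CPM in the WT libraries and at 90.5 and 112 CPM in the *Phf2* KO libraries. Both *Phf2* KO libraries lay between the WT libraries, and the log2 ratio of *Phf2* KO to WT was 0.46 for the replicates 1 and -0.21 for the replicates 2. The log2 fold change of 0.05 had a 95% interval of -0.86 to 0.96. The neighbours also had opposite differences between replicate numbers, since *Igfbp2* was lower in replicate 1 (log2 difference -0.98 in WT and -0.31 in *Phf2* KO) and *Igfbp5* was higher there (0.53 and 0.37).

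*Igfbp3*, which encodes the main carrier of IGF in blood plasma, had the most counts of the 10 and lies on mm9 chromosome 11 (7106089 to 7113926, minus strand). It was at 3037 and 2772 CPM in the WT libraries and at 2676 and 2901 CPM in the *Phf2* KO libraries, with overlapping groups. The log2 fold change was -0.06 (95% interval -0.37 to 0.25), and the log2 ratio within replicate numbers was -0.18 and 0.07. *Igfbp1*, which lies 3.54 kb away on chromosome 11 and encodes a binding protein made mainly in liver, had 0 counts in all 4 libraries, which allows up to 0.145 CPM in the shallowest.

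*Igfbp4* (chromosome 11, 98902558 to 98913969, plus strand), *Igfbp6* (chromosome 15, 101974793 to 101979942, plus strand) and *Igfbp7* (chromosome 5, 77778265 to 77837070, minus strand) each had a lower mean in *Phf2* KO and overlapping groups. *Igfbp4*, which encodes one of the binding proteins that PAPP-A cuts, was at 473 and 520 CPM in the WT libraries and at 397 and 490 CPM in the *Phf2* KO libraries. *Igfbp6*, whose product prefers IGF2, was at 193 and 273 CPM in the WT libraries and at 194 and 218 CPM in those of *Phf2* KO. *Igfbp7*, which encodes a related protein with low affinity for IGF, was at 202 and 248 CPM in the WT libraries and at 169 and 217 CPM in those of *Phf2* KO. All of them were lower in replicate 1 than in replicate 2 in both groups, opposite to *Igf1* and *Igfbp5*. The log2 fold changes were -0.16 for *Igfbp4*, -0.18 for *Igfbp6* and -0.22 for *Igfbp7*, and the widest 95% interval, that of *Igfbp6*, ran from -0.68 to 0.33. Within replicate numbers the log2 ratio was -0.25 and -0.08 for *Igfbp4*, 0.01 and -0.32 for *Igfbp6*, and -0.26 and -0.19 for *Igfbp7*. Without *Phf2* KO replicate 1 the log2 fold changes of *Igfbp4* and *Igfbp7* were -0.02 and -0.05, and without WT replicate 2 that of *Igfbp6* was 0.08. *Igfbp7* overlaps *Polr2b*, a gene on the other strand.

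*Pappa*, the protease gene, lies on mm9 chromosome 4 from 64785208 to 65018543 on the plus strand. It was at 466 and 420 CPM in the WT libraries and at 356 and 376 CPM in the *Phf2* KO libraries. Both *Phf2* KO libraries were below both WT libraries, with a gap that was wider than the difference between the *Phf2* KO replicates but slightly narrower than that between the WT replicates. The *Phf2* KO mean was 82.7% of the WT mean (366 ± 14.0 against 443 ± 32.1 CPM, SD, n = 2 each). The log2 fold change was -0.27 (95% interval -0.54 to -0.01, unadjusted p = 0.0451 by edgeR's quasi-likelihood test) and did not pass adjustment over all genes. The log2 ratio was -0.39 for the replicates 1 and -0.16 for the replicates 2, and the value without WT replicate 1 was -0.19.

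**Figure D3:**
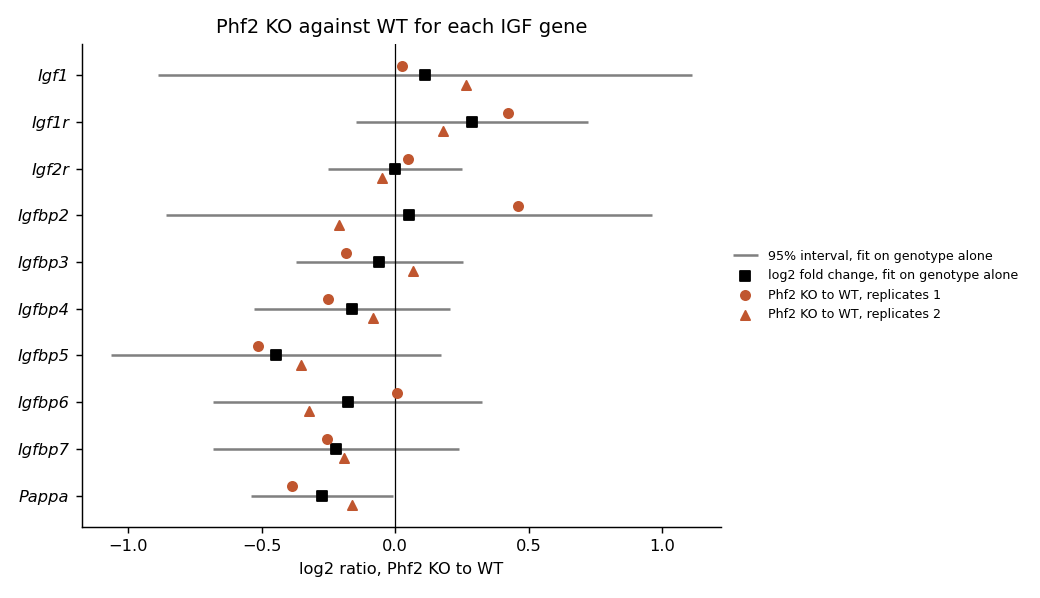
Log2 ratio of *Phf2* KO to WT for each of the 10 IGF genes, with the fitted log2 fold change (square), its 95% interval (line) and the ratio within replicates 1 (circle) and within replicates 2 (triangle). Circle and triangle lie on the same side of 0 for 6 genes and on opposite sides for *Igf2r*, *Igfbp2*, *Igfbp3* and *Igfbp6*.

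In a fit with the replicate number as a further term (replicate block), 4 of the 10 IGF genes passed the threshold of 0.1 when p-values of edgeR's quasi-likelihood test were adjusted by Benjamini-Hochberg. *Igf1r* was higher in *Phf2* KO (log2 fold change 0.30 ± 0.08 SE, adjusted p = 0.00776), and *Igfbp5* (-0.43 ± 0.10 SE, adjusted p = 0.000654), *Pappa* (-0.27 ± 0.09 SE, adjusted p = 0.0331) and *Igfbp7* (-0.22 ± 0.08 SE, adjusted p = 0.0799) were lower. Beside this 1 higher and 3 lower gene of 10, the same fit called 5.77% of all tested genes as higher and 5.2% as lower. With the replicate block DESeq2 called 1 of the 10, *Igfbp5*. The labels do not state that equal numbers mark paired cultures, and the block leaves 1 residual degree of freedom, with the spread of each gene taken from the trend over all genes. The values are therefore given beside the fit on genotype alone and do not replace it. Of the 10 genes, 6 had the same sign within both replicate numbers, and this was so for 62.8% of all tested genes.

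The RefSeq promoter windows of the genes called in that fit are shown for *Igf1r*, *Igfbp5* and *Igfbp7*, as the 250 bases before the transcription start, 5′ to 3′ on the strand of the gene. The windows come from the RefSeq annotation of GRCm38.p6, were matched exactly and once to mm9, and were found for 9 of the 10 genes (not for *Pappa*). Capitals mark the GC box GGGCGG on either strand.
*Igf1r* (chr7:75096893-75097142, plus strand): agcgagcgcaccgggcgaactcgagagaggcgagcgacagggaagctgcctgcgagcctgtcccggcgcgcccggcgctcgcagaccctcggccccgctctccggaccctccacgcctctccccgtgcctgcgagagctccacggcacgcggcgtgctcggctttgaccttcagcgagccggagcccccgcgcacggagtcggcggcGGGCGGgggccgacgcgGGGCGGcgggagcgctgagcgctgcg
*Igfbp5* (chr1:72921440-72921689, minus strand): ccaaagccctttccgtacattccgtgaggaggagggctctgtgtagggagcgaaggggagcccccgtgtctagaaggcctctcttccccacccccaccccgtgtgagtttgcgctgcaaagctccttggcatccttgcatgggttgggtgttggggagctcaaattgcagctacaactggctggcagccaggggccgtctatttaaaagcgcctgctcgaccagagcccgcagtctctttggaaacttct
*Igfbp7* (chr5:77837071-77837320, minus strand): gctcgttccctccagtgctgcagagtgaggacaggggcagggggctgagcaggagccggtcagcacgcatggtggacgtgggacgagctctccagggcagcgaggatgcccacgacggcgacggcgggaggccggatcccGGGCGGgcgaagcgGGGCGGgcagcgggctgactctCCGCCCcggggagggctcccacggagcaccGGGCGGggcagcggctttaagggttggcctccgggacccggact
The *Igf1r* window held 2 GC boxes, 42 CpG dinucleotides and a GC content of 77.6%, and that of *Igfbp7* held 4 GC boxes, 26 CpG and 74.0% GC. The *Igfbp5* window held 0 GC boxes, 10 CpG and 58.8% GC. Over 32851 such windows of all genes, 32.7% held a GC box, the median number of CpG was 6 and the median GC content 52.4%. The TATA box TATAAA, present in 12.4% of all windows, and the E-box CACGTG, present in 6.02%, were searched on both strands and were in none of these 3 windows. Among the windows of IGF genes not called with the block, CpG ran from 5 (*Igf1*) to 32 (*Igfbp3*). Their GC content ran from 49.6% (*Igfbp6*) to 73.2% (*Igfbp3*). *Igf2r* held 3 GC boxes, the 2 *Igfbp2* windows 3 and 0, and *Igf1*, *Igfbp3*, *Igfbp4* and *Igfbp6* held 0. Such matches describe the letters of the windows alone.

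Per kb of annotated exon, the IGF genes spanned a wide range of levels. *Igfbp3* was the highest with 928 ± 59.8 CPM per kb in WT and 891 ± 50.9 in *Phf2* KO (SD, n = 2 each). *Igfbp4*, *Igfbp6*, *Igfbp5* and *Igfbp7* followed at WT means of 210.1, 209.8, 206 and 185 CPM per kb, and each overlapped its neighbour in this order among the WT libraries. *Igf2r* was at 110 CPM per kb in WT, *Igfbp2* at 52.9, *Pappa* at 39.9, *Igf1r* at 31.1 and *Igf1*, the lowest, at 12.6 CPM per kb. *Igfbp2* and *Pappa* overlapped in WT. *Pappa* was above *Igf1r* in both WT libraries and below it in both *Phf2* KO libraries, where the means were 32.9 CPM per kb for *Pappa* and 38.04 CPM per kb for *Igf1r*. Exon lengths were taken from GENCODE vM1 on mm9, and the annotation behind the counts is not given in the sources used here, so an order of close levels depends on that choice. For *Igf1r* GENCODE vM1 gave 4.48 kb of exon and a start at 75097713, while the RefSeq window before its start ends at 75097142. A longer *Igf1r* model would lower its level per kb in each library. The crossing of *Pappa* and *Igf1r* therefore depends on the exon length used.

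**Figure D4:**
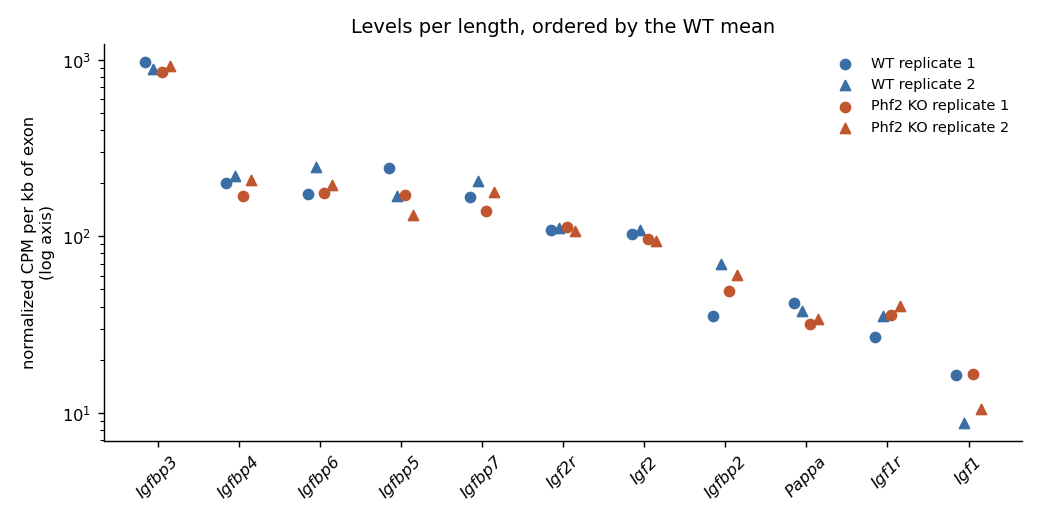
Normalized CPM per kb of exon (log axis) for the 10 IGF genes and for *Igf2*, ordered by the WT mean, with 1 point per library. *Igfbp3* stands above all others, at 855 to 970 CPM per kb, and *Igf1* is lowest, at 8.74 to 16.7 CPM per kb.

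*Igfbp3* made up 54.2% and 49.3% of the summed level per kb of the 6 binding protein genes in the WT libraries, and 54.9% and 54.4% in *Phf2* KO. The share of *Igfbp5* was 13.6% and 9.40% in the WT libraries and 10.98% and 7.76% in those of *Phf2* KO, lower in *Phf2* KO within each replicate number while the groups overlapped. The summed level of the 6 genes was 1790 and 1795 CPM per kb for the WT libraries and 1557 and 1702 CPM per kb for those of *Phf2* KO. Both *Phf2* KO sums were below both WT sums, and with 2 libraries a group an exact permutation test cannot reach a p under 0.05.

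*Igf2*, the other ligand gene, which is imprinted, was not among the 10 but exceeded *Igf1* per kb in each library. It was at 566 and 596 CPM in the WT libraries and at 531 and 515 CPM in the *Phf2* KO libraries, both *Phf2* KO libraries being below both WT libraries. Its log2 fold change was -0.15, and edgeR's quasi-likelihood test gave a Benjamini-Hochberg adjusted p of 0.999 on genotype alone and of 0.379 with the replicate block. Per kb, the ratio of *Igf2* to *Igf1* was 6.28 and 12.4 for the WT libraries and 5.79 and 8.94 for those of *Phf2* KO, lower in replicate 1 of both groups, in which *Igf1* was higher.

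Of 47 other genes of the pathway, 41 were tested, and 0 passed edgeR's quasi-likelihood test on genotype alone after Benjamini-Hochberg adjustment. At an unadjusted p under 0.05, 3 were lower and 0 higher, beside 365 lower and 211 higher of all 13668 tested genes. DESeq2 called 1 of them, *Pik3r1*, and limma-voom 0. By sign 19 were higher and 22 lower in *Phf2* KO, with a median log2 fold change of -0.03. The groups did not overlap for 3 of the 41 that were higher and 10 that were lower, where the shares over all tested genes were 15.5% and 18%. With the replicate block, 1 was called higher and 6 lower by edgeR, beside 5.77% and 5.2% of all tested genes. This list too was chosen with earlier results of these data known. DESeq2 with the block called *Ghr*, *Htra1* and *Pik3r1* of these 7. It did not call *Furin* (adjusted p = 0.185), *Htra3* (adjusted p = 0.392) or *Irs1* (adjusted p = 0.285), and it gave *Stc1* no adjusted p.

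Among the proteases of binding proteins and their inhibitors, 5 of 6 tested genes had a lower and 1 a higher value in *Phf2* KO, with a median log2 fold change of -0.29. Of all 13668 tested genes, 6665 had a lower value, and the median was 0.01. *Htra1*, which encodes a secreted serine protease that cuts binding proteins, was at 402 and 398 CPM in the WT libraries and at 302 and 330 CPM in the *Phf2* KO libraries. The groups did not overlap, and the log2 fold change was -0.34 (edgeR's quasi-likelihood test, adjusted p = 0.999 on genotype alone and 0.00337 with the replicate block). *Htra3*, a relative of *Htra1*, had a log2 fold change of -0.31, and its groups did not overlap either. *Stc1*, which encodes a stanniocalcin, a family that includes inhibitors of PAPP-A, had the lowest log2 fold change of the pathway, -1.14, at a level of at most 1.73 CPM. *Stc2* had a log2 fold change of 0.10 and *Pappa2*, the relative of *Pappa*, one of -0.28, both with overlapping groups. With the replicate block *Htra3* (adjusted p = 0.0148) and *Stc1* (adjusted p = 0.0237) were called lower by the same test.

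Of the genes that act before and after the receptor, *Ghr* and *Pik3r1* had the lowest unadjusted p in the fit on genotype alone. *Ghr*, the growth hormone receptor gene, was at 104 and 93.9 CPM in the WT libraries and at 62.2 and 73.6 CPM in the *Phf2* KO libraries. *Pik3r1*, which encodes a regulatory subunit of PI3 kinase, was at 128 and 139 CPM in the WT libraries and at 92.6 and 95.1 CPM in those of *Phf2* KO. Both were below WT in both *Phf2* KO libraries, with log2 fold changes of -0.54 for *Ghr* and -0.51 for *Pik3r1* and adjusted p of 1.13e-08 and 1.27e-07 in the replicate block fit of edgeR's quasi-likelihood test, against 0.999 for each without the block. *Irs1*, an adaptor of the receptor, had a log2 fold change of -0.29 (adjusted p = 0.0123 with the block by the same test), and *Furin*, a protease that matures precursors of growth factors and receptors, one of 0.27 (adjusted p = 0.0260), the highest of the pathway. *Insr*, the insulin receptor gene, had a log2 fold change of 0.06, *Irs2* one of 0.19 and the adaptor gene *Grb10* one of -0.03. None of them was called with the block. For *Ghr* and *Pik3r1*, DESeq2 with the block gave adjusted p of 0.00260 and 0.000379. The edgeR block fit took the spread of each gene from the trend over all genes. Its small p-values therefore do not measure the spread of these single genes.

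**Figure D5:**
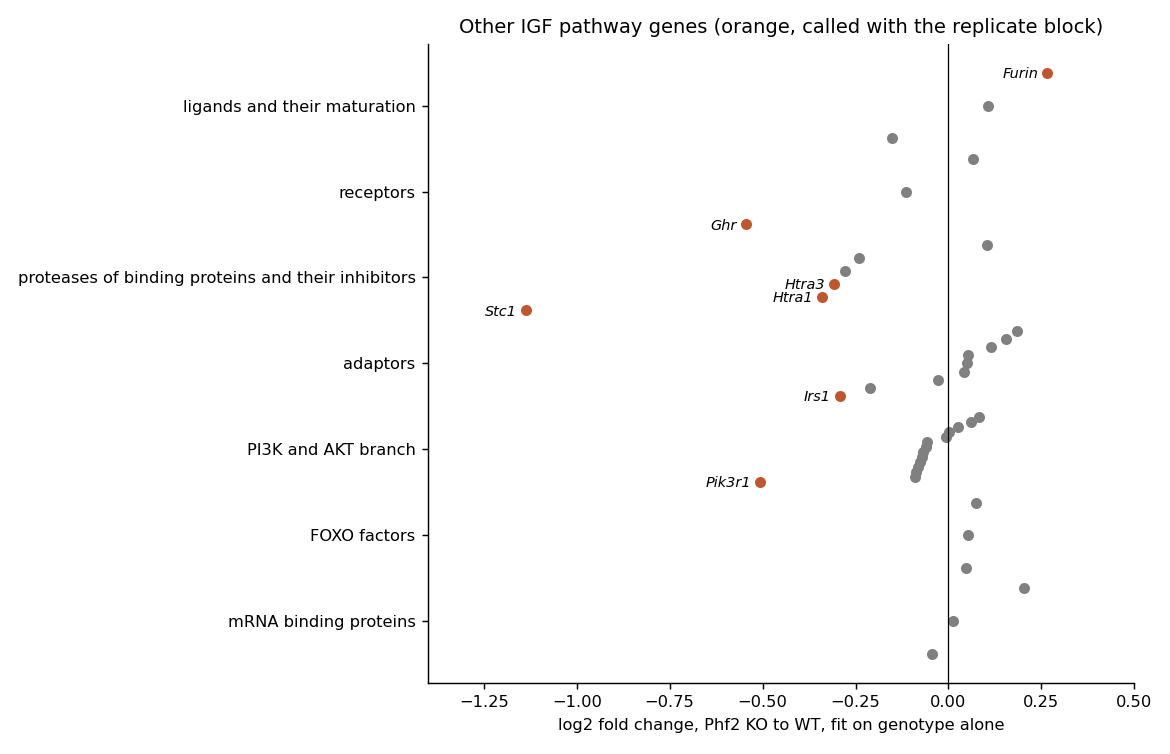
Log2 fold change of *Phf2* KO to WT for the 41 tested other genes of the pathway, from the fit on genotype alone, 1 point per gene, grouped by role. The 7 orange, named genes were called with the replicate block, and 6 of them lie below 0.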

How the data were processed

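Single reads of 50 nt were trimmed by the authors with Trim Galore, cleared of rRNA with Bowtie2, aligned to mm9 with STAR and assigned to genes with featureCounts. Tool versions are not given in the sources used here. The deposited values are whole-number counts per gene symbol, without normalization. The authors' deposited table of fold changes, p-values and mean signals from DESeq2 was not used.

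Differential expression was tested with edgeR 4.0.16 in R 4.3.3 (filterByExpr, TMM, glmQLFit, glmQLFTest, Benjamini-Hochberg adjustment over 13668 genes, threshold 0.1), with DESeq2 1.42.0 and limma 3.58.1 (voom) as alternatives. Log2 ratios of single libraries used an offset of 0.5 counts. Python 3.11.15 with pandas 2.3.3 was used for annotation. Further alternatives were RLE or library-size scaling, filters of at least 1 count or of 1 CPM in 2 libraries, the replicate block, leaving out each library, and thresholds of 0.05 and 0.01.

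The labels do not pair the libraries. The difference between replicates 1 and 2 was correlated between WT and *Phf2* KO across genes, which are not independent (Pearson's r = 0.760).

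The IGF genes, pathway list and marker lists were chosen with earlier results of these data known. All 10 IGF genes were named, and of the pathway preset genes, those called with or without the block and those with the extreme fold changes. *Col1a1*, *Col1a2*, *Col3a1*, *Fn1*, *Lum*, *Postn*, *Pdgfrb*, *Thy1*, *Vim*, *Csf1r*, *Lyz2*, *Cd68*, *Mpeg1* and *Airn* were named after their values were seen.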

Additional observations from a re-analysis of the deposited data

Results flagged for a closer look

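Within replicates 1 and within replicates 2 the *Phf2* KO library moved in opposite directions from WT for 4 of the 10 IGF genes. The log2 ratio of *Phf2* KO to WT in replicates 1 minus that in replicates 2 was 0.0966 for *Igf2r*, 0.672 for *Igfbp2*, -0.248 for *Igfbp3* and 0.333 for *Igfbp6*. These differences between the replicate numbers were not tested, since each ratio rests on 1 library per group and no degree of freedom is left for such a term.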

How the results depend on the processing

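In the fit on genotype alone edgeR called 1 of all tested genes, DESeq2 64, limma-voom 0, and the thresholds of 0.05 and 0.01 and the fits that left out 1 library each 0. With the replicate block 1500 genes were called by edgeR (1116 at 0.05, 634 at 0.01), 1371 by limma-voom and 302 by DESeq2, which gave an adjusted p to 7550 genes there and to 15991 without the block, against 13668 for edgeR and limma-voom. The block with limma-voom, DESeq2 or other thresholds was added after the data had been seen. Of the 10 IGF genes 0 were called without the block and by any fit that left out 1 library. With the block 4 were called by edgeR and by limma-voom, 1 by DESeq2, 3 at a threshold of 0.05 and 2 at 0.01. Of the other pathway genes 0 were called by edgeR, 1 by DESeq2, and with the block 7 by edgeR and by limma-voom, 3 by DESeq2, 7 at 0.05 and 3 at 0.01. Calls gained with the block came with a common dispersion of 0.00363, against 0.0451 without it.

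*Igf1r*, *Igfbp4*, *Igfbp5*, *Igfbp7* and *Pappa* kept their direction in the alternatives run. Leaving out 1 library, the log2 fold change ran from -0.288 to 0.649 for *Igf1*, from -0.0372 to 0.0326 for *Igf2r*, from -0.344 to 0.608 for *Igfbp2*, from -0.139 to 0.0201 for *Igfbp3* and from -0.393 to 0.0772 for *Igfbp6*, changing sign for each. *Igf1* was -0.288 without WT replicate 2 and -0.263 without *Phf2* KO replicate 1, *Igfbp2* was -0.344 without WT replicate 1 and -0.107 without *Phf2* KO replicate 2. *Igf2r* was -0.00069 in the fit on genotype alone, 0.00497 with DESeq2, 0.00622 with RLE size factors and 0.00456 with the replicate block in DESeq2. The cause of these changes was not tested.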
